A study of Homo sapiens with 8 samples.

Results

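Genes whose response to imatinib (IM) differed between K562 and KBM5 cells were examined among those expressed in both lines. The IM effect of a line was the mean of 2 log2 differences, IM minus control and combination minus OR21, and the value compared was the KBM5 effect minus the K562 effect. A gene counted as expressed in a line when its log2 intensity, averaged over the 4 arrays of that line, lay above the background of the arrays, set at percentile 95 of each array's negative controls. This held in both lines for 5643 of the 17687 named genes, in K562 alone for 1262 and in KBM5 alone for 737. The member nearest to the limit was QTRT1, which lay 0.00032 above background on the log2 scale in KBM5, and the nearest gene outside was SETMAR, at -7.4e-05 in KBM5.

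Both lines were established from chronic myeloid leukaemia and share the BCR-ABL1 kinase. The study measured total RNA on 8 expression arrays, 1 for each of 4 treatments in each line: control cells with no drug, cells given OR21 (100 nM) on 3 days, cells given IM (1000 nM) with RNA taken 24 hours later, and cells given OR21 and then IM, called the combination. The label of the combination leaves out the OR21 dose, which is taken here from the treatment protocol. OR21 is a DNA demethylating agent, and the study asked which genes its combination with IM changes. Cells of both lines grew in RPMI-1640 medium with foetal bovine serum, and each line is a single cell line, so a difference between them is a difference between these cultures.

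BCR-ABL1 is a tyrosine kinase that is active without an outside signal. It drives survival and division through the STAT5, RAS-ERK and PI3K-AKT pathways, and IM blocks it by occupying its ATP pocket. Cells that lose the signal can leave the cell cycle, die, or take on features of the blood lineage they resemble, which is erythroid in K562 and granulocyte-monocyte in many other myeloid lines.

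The arrays had similar overall brightness, with a median intensity of 77.8 to 83.3. The background lay between 161 and 263, highest on the KBM5 control array, which also had the fewest genes above it (5874, against 7083 on the K562 OR21 array). Lineage markers separated the lines. The summed intensity of 8 erythroid markers was 104087 to 736675 on the K562 arrays and 1850 to 20051 on the KBM5 arrays, where 1 of the 8 was above background. Most of the KBM5 sum was TFRC, at 19539, 19724, 2127 and 1543 on the control, OR21, IM and combination arrays. The summed intensity of 10 granulocyte-monocyte markers was 1810 to 3077 on the K562 arrays and 73537 to 351571 on the KBM5 arrays, with ITGAM above background on no array. Of 7 megakaryocyte markers 6 were above background on no array, and CD3E, MS4A1, PAX5, CD2 and CD5 among the lymphoid markers were likewise below it throughout. Among 6 epithelial markers 4 were above background on the K562 arrays and 1 on the KBM5 arrays.

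With 1 array per group, the tests took the array pairs with and without OR21 as repeats within each line. Their p-values therefore rest on how far the IM effect differed between those pairs, which may be technical, and not on the spread between independent cultures. That variation was pooled over both lines and drawn towards the value typical of all genes. A gene therefore has the same SE in both lines, whichever line's pairs differed more. A call means an adjusted p below 0.05 (limma, with the Benjamini-Hochberg method over all genes). The control and IM arrays of a line are named its plain pair and the OR21 and combination arrays its OR21 pair. Leaving out either array of a pair makes the IM effect of the line rest on the other pair. In simulated data, differences of 1 on the log2 scale were recovered in 0 of 50 genes, differences of 2 in 37 of 50 and differences of 3 in 49 of 50, so a gene without a call may still differ. The simulation changed 200 of 17687 genes, fewer than the 1796 called in the data, so its recovery need not hold here.

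The lines responded differently in a substantial share of their common genes. The difference of the IM effect was called for 895 of the 5643 genes (15.9%), against 10.2% of all genes tested and 7.48% of the genes not above background in both lines. A gene can be among the 5643 through the arrays on which it is high, and of the 4660 above background on all 8 arrays 645 were called (13.8%). The effect was higher in KBM5 for 397 (7.04%, against 5.25% of all genes) and higher in K562 for 498 (8.83%, against 4.9%). The smallest called difference was 1.16 on the log2 scale and the median called one 1.73. At an unadjusted p under 0.05 there were 1897 such genes. The count fell to 294 without an array of the K562 plain pair and to 347 without an array of the K562 OR21 pair. By size alone, 417 genes (7.39%, against 5.33% of all genes) were 2-fold or more higher in KBM5 in both pairs and 509 (9.02%, against 4.99%) were so in K562.

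IM changed more of the common genes in KBM5, an order that depended on the arrays. IM raised 971 of the common genes in KBM5 (17.2%, against 10.8% of all genes) and lowered 1319 (23.4%, against 10.6%). In K562 it raised 414 (7.34%, against 5.34%) and lowered 912 (16.2%, against 8.05%). Without an array of the KBM5 plain pair the order turned, with 1530 calls in KBM5 and 1697 in K562, in place of 2290 and 1326. The K562 calls numbered 217 without an array of the K562 plain pair and 330 without an array of the K562 OR21 pair. The standard deviation of the effect over these genes was 1.10 in KBM5 and 0.78 in K562. Most called differences came from a response called in KBM5 alone: 576 of the 895 were of this kind, 208 up and 368 down. Another 153 were called in K562 alone, 51 up and 102 down. A further 75 moved in the same direction in both lines by unequal amounts, 65 of them down, and in 61 of the 75 the change was larger in KBM5. The remaining 29 were called in neither line, and 62 were called in opposite directions.

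The responses also had much in common. Of 774 genes called in both lines, 712 moved the same way, 207 up and 505 down. Over the 5643 genes the effects of the lines correlated with r = 0.48 (rho = 0.50), a description across genes, which are not independent. The difference between the lines was measured on separate arrays without and with OR21, and these measurements correlated with r = 0.82. All 895 called differences had the same sign in both, but the test used these pairs as its repeats. A call therefore largely requires such agreement, which is not separate evidence. For 704 of the 895 the intensities of the lines lay further apart with IM than without it, and for 191 they lay closer together. Most common genes did the same: 3564 of all 5643 lay further apart with IM, and their median gap grew from 0.63 to 0.84 on the log2 scale over the 5643.

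**Figure D1:**
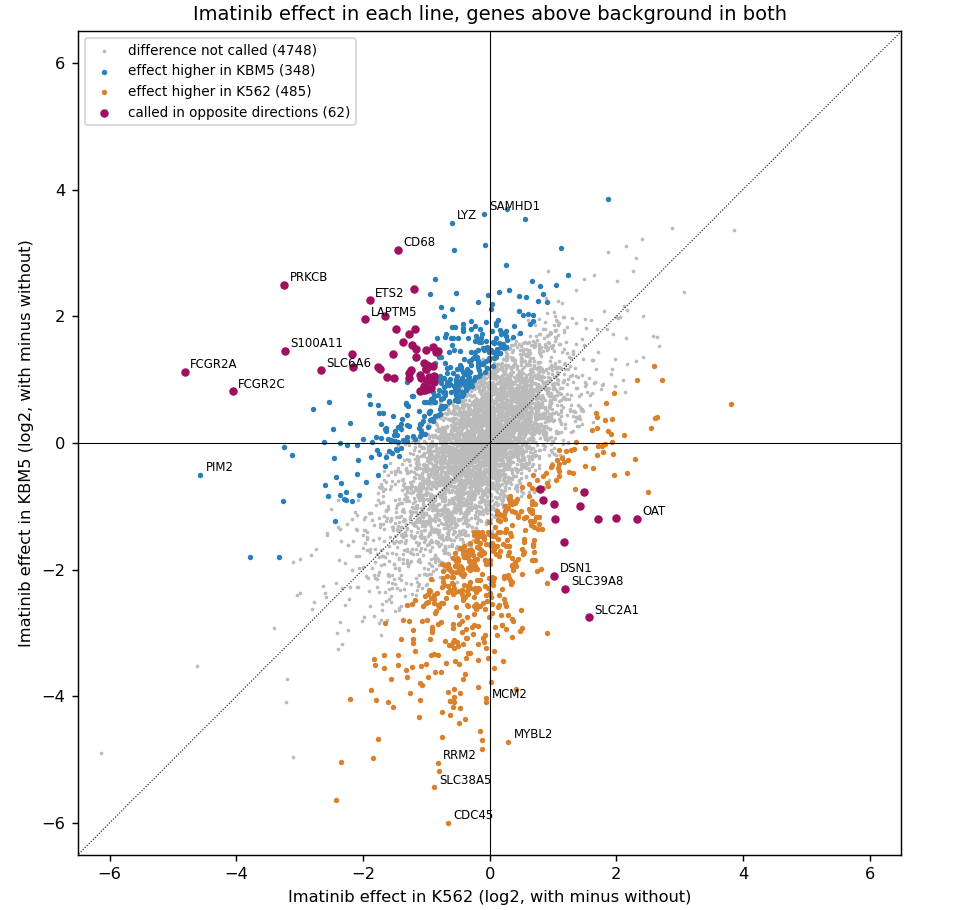
Each point is 1 of the 5643 genes, with the IM effect in K562 on the horizontal axis and in KBM5 on the vertical axis, both as log2 of the intensity with IM over that without, averaged over 2 array pairs. Coloured points are genes with a called difference, and the 62 purple points, called in opposite directions, lie mostly in the upper left quadrant (49 up in KBM5 and down in K562); a selection of the named genes is labelled.

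**Figure D2:**
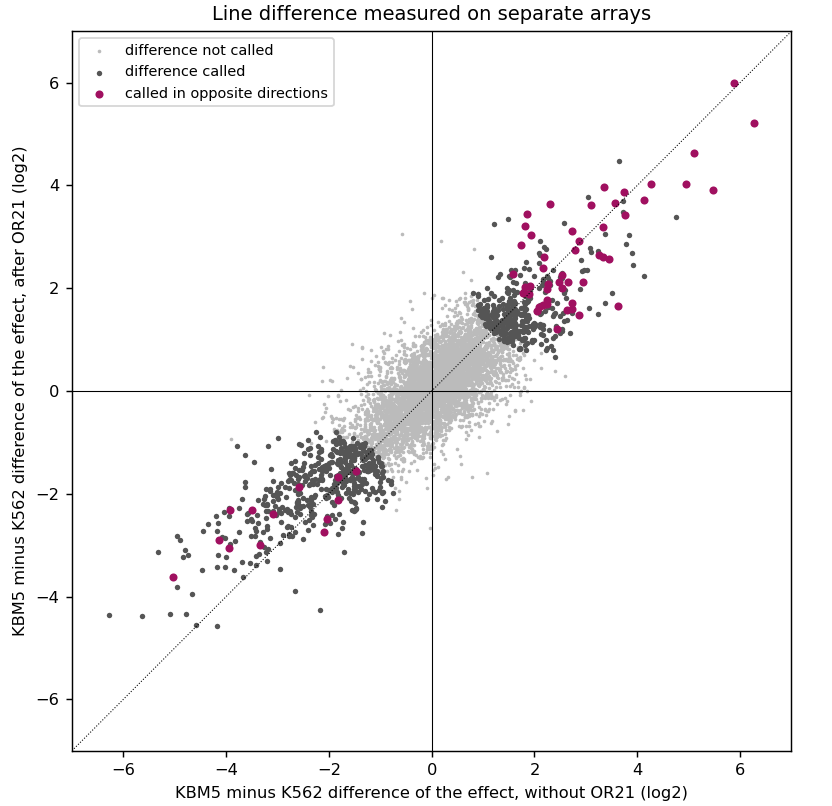
The KBM5 minus K562 difference of the IM effect is shown for each of the 5643 genes as measured without OR21 (horizontal, log2) and after OR21 (vertical, log2), on arrays that do not overlap. The measurements correlated with r = 0.82 over the genes, and each of the 895 genes with a called difference lies in the lower left or upper right quadrant. The test used both measurements as repeats, so that position largely follows from the call.

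IM moved 62 genes in opposite directions (1.1% of the common genes). The class required calls in both lines and for the difference, with the called signs in all 4 array pairs. In 49 the intensity rose in KBM5 and fell in K562, and in 13 it rose in K562 and fell in KBM5. This split depended on the scaling: after quantile normalization there were 67 such genes, 36 and 31, so the share that rose in KBM5 went from 79.0% to 53.7%, and 39 of the 62 remained in the class. All 62 kept their sign in both lines and their called difference under that scaling. Among the genes named below, ARPC1B, CBL, FERMT3, FHL3, JAK1, MAX, NT5C2 and TNFRSF1A left the class because their K562 effect was no longer called. HTRA2, NIPSNAP2 and TCF4 left it because their KBM5 effect was no longer called. Of the 62, 43 were above background on all 8 arrays. The count was 14 without an array of the K562 plain pair and 18 without an array of the K562 OR21 pair. Among the 49, the line with the higher mean level changed with IM in 23 genes, KBM5 was higher with and without IM in 22, and K562 in 4. Among the 13 it changed in 5, and K562 was higher with and without IM in 8.

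Among the 49 genes that fell in K562 and rose in KBM5, 3 belong to the granulocytic and monocytic list and 2 to the immune signalling list. FCGR2A, of the first list, encodes an activating receptor for the constant part of IgG. It measured 28574, 17428, 924 and 685 in K562 and 1266, 2602, 2401 and 6470 in KBM5 (in the order control, OR21, IM and combination, as throughout). The K562 arrays with IM lay far below those without it, and in KBM5 each array with IM lay above its partner without IM although the ranges overlapped. The effect was -4.81 ± 0.24 (SE) in K562, a 28.1-fold fall, and 1.12 ± 0.24 in KBM5, a 2.17-fold rise, and the difference was 5.93 ± 0.34 (adjusted p = 3.26e-05). Its near copy FCGR2C showed the same pattern with effects of -4.06 and 0.81, and probes for these paralogs may not tell them apart.

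PRKCB, the beta isoform of protein kinase C, measured 7927, 4859, 744 and 578 in K562 and 210, 317, 1532 and 1395 in KBM5. The line with the higher level changed with IM, and in neither line did the arrays with and without IM overlap. The KBM5 control lay below its background of 263, so the size of the rise there, 2.50 ± 0.26, is not exact, while the fall in K562 was -3.24 ± 0.26 and the difference 5.74 ± 0.37 (adjusted p = 3.76e-05). LYN, a SRC-family kinase of blood cells, measured 3123, 2456, 1040 and 885 in K562 and 4015, 3805, 8902 and 11906 in KBM5. The lines started within 1 unit of each other on the log2 scale and moved apart, with effects of -1.53 ± 0.24 and 1.40 ± 0.24. RAC2, a small GTPase of blood cells, was called for the difference too, with effects of -1.08 and 0.20. These were the 3 called among 10 immune signalling genes above background in both lines (2 without an array of either K562 pair or of the KBM5 plain pair), against 15.9% of the 5643 genes. The median difference of the 10 was 0.80, against 0.08 over the 5643 genes.

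CD68, a lysosomal glycoprotein typical of macrophages, measured 511, 1048, 225 and 320 in K562 and 1176, 4424, 16060 and 22125 in KBM5. In both lines the arrays with IM stood clear of those without, below them in K562 and above them in KBM5. The effects were -1.45 ± 0.33 and 3.05 ± 0.33 (an 8.26-fold rise). LAPTM5, a lysosomal membrane protein of blood cells, measured 438, 6731, 141 and 1373 in K562 and 12985, 27052, 72642 and 72235 in KBM5. In K562 the arrays with OR21 were the higher ones, each array with IM lay below its partner without, and the IM array lay below background. The difference was 3.92 ± 0.43 (adjusted p = 0.000511). SPI1, the transcription factor PU.1 that directs granulocyte-monocyte development, measured 280, 423, 131 and 156 in K562 and 9209, 5619, 14331 and 14862 in KBM5. Neither K562 array with IM was above background, so the fall there was at least 1.87-fold, and the rise in KBM5 was 2.03-fold.

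LYZ, which encodes lysozyme, completes the 4 genes called for the difference among 7 granulocytic and monocytic genes above background in both lines. It measured 2112, 2431, 1611 and 1388 in K562 and 12342, 31218, 254951 and 185905 in KBM5. All KBM5 arrays lay above all K562 arrays, and those with IM stood highest. The KBM5 effect was 3.47 ± 0.37, an 11.1-fold rise, and the K562 effect of -0.60 ± 0.37 was not called (adjusted p = 0.343). The other members, CYBA, CEBPB and GFI1, had differences that were not called, and the median of the 7 was 2.29. Over the 5643 genes 15.9% were called. Of 48 genes of the list measured, 11 were called higher in KBM5 and 3 higher in K562, against 5.25% and 4.9% of all genes. The median difference of the 48 was 0.52. The 15 measured granule protein genes among them had a median difference of -0.45, with 2 called higher in KBM5 and 2 higher in K562. The summed granulocyte-monocyte markers, which include LYZ, SPI1 and other genes of this list, are not separate evidence. With LYZ left out the sum was 499.9 and 647 without IM and 396 and 422 with it in K562, and 61195 and 121049 without IM and 96619 and 165658 with it in KBM5. There the arrays with and without IM overlapped, although each with IM lay above its partner. In bulk RNA, more cells of a type and more RNA per cell cannot be told apart.

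ZYX, zyxin of focal adhesions, measured 353, 434, 108 and 184 in K562 and 851, 628, 2631 and 2449 in KBM5, so that the arrays with IM lay below the others in K562 and above them in KBM5. The K562 IM array was below background, so the size of the fall is not exact. VIM, the intermediate filament vimentin, measured 25405, 14230, 6408 and 8532 in K562 and 1702, 1996, 4304 and 7244 in KBM5. K562 held the higher level with and without IM, and the ratio between the lines shrank under IM, with effects of -1.36 ± 0.31 and 1.60 ± 0.31. S100A11, a calcium-binding protein, measured 12900, 10825, 1081 and 1460 in K562 and 4260, 20086, 15765 and 40914 in KBM5. In KBM5 the OR21 array lay above the IM array, so that arrays with and without IM overlapped, while in K562 they did not. RAB11FIP1, which acts in recycling endosomes, was below background on both K562 arrays with IM, a fall of at least 2.47-fold, and rose 2.66-fold in KBM5.

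ETS2, a transcription factor of the ETS family, measured 974, 1394, 265 and 370 in K562 and 3659, 2687, 19185 and 11685 in KBM5. The arrays with and without IM did not overlap in either line, and the effects were -1.89 ± 0.23 and 2.26 ± 0.23 (difference 4.15 ± 0.33, adjusted p = 0.000113). ZNF385A, a zinc finger protein, had effects of -1.65 and 2.01, and SLC6A6, the taurine transporter, -2.66 and 1.15. Several others of the 49, chosen here after their values were seen, act in the cytoskeleton (COTL1 with -2.16 and 1.20, ARPC1B, FERMT3 and DOCK11), in JAK-STAT and cytokine signalling (JAK1 with -1.01 and 1.48, STAT3 with -1.51 and 1.02, SOCS4 and TNFRSF1A) or in survival (CFLAR, an inhibitor of death receptor signalling, with -1.28 and 1.73). STAT3 was below background on 1 of the 2 KBM5 arrays without IM, so the size of its rise is not exact. After quantile normalization the K562 falls of ARPC1B, FERMT3, JAK1 and TNFRSF1A were not called. SMAD3, which carries TGF-beta signals, was below background on both K562 arrays with IM and on both KBM5 arrays without it. It rose at least 4.29-fold in KBM5 and fell at least 1.77-fold in K562.

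**Figure D3:**
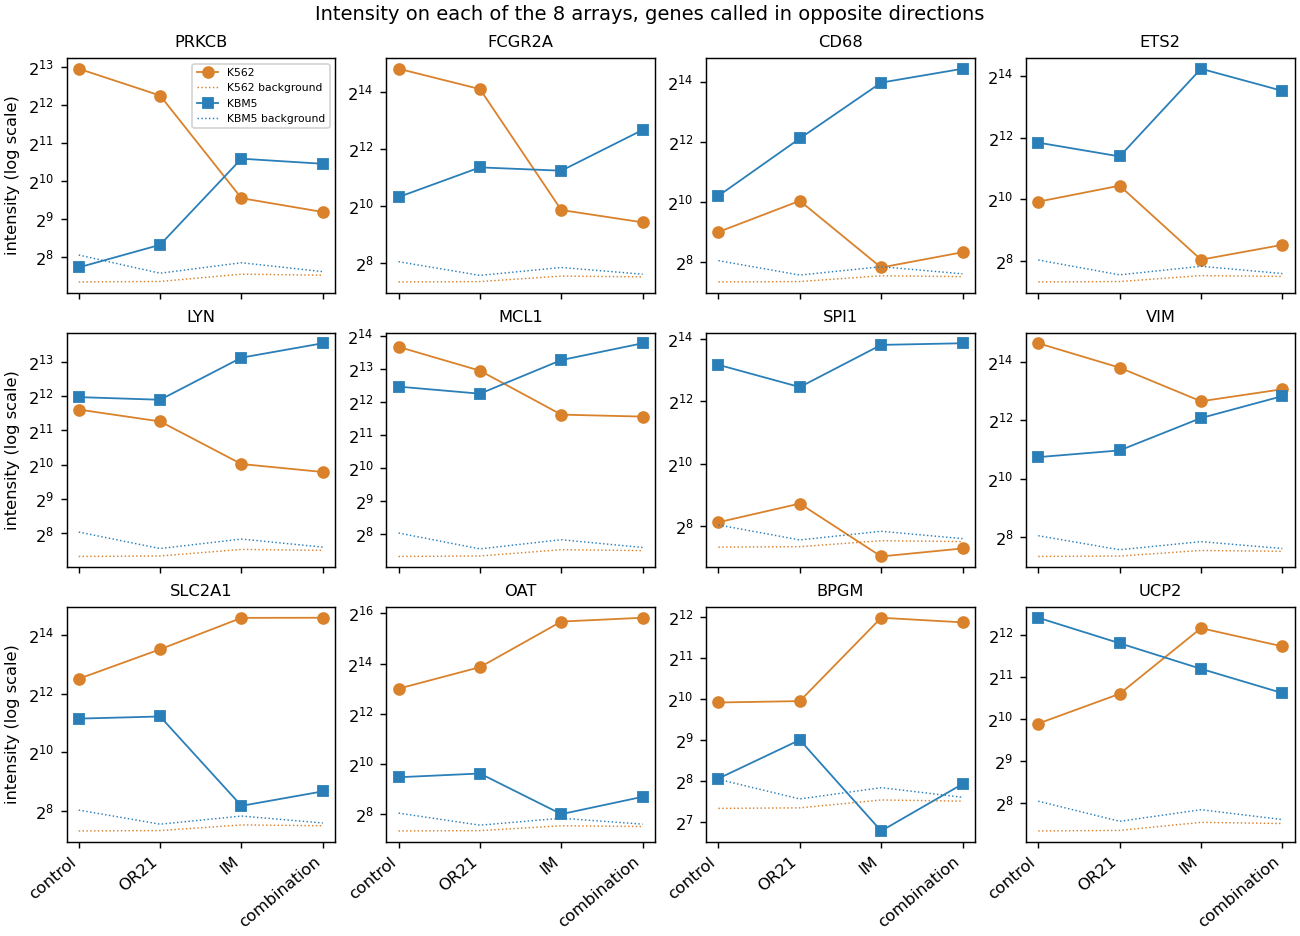
Intensity (log axis) of 12 genes called in opposite directions on each of the 8 arrays, with K562 as orange circles, KBM5 as blue squares and the background of each array as dotted lines; each point is 1 array, so there are no error bars. In the upper 8 panels the K562 line falls and the KBM5 line rises from the arrays without IM to those with it, and in the lower 4 panels the reverse.

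Of the 13 genes that rose in K562 and fell in KBM5, 10 are described here. SLC2A1, the glucose transporter GLUT1 that is abundant in red cells, measured 5803, 11635, 24391 and 24458 in K562 and 2272, 2389, 291 and 409 in KBM5. The arrays with and without IM did not overlap in either line, and the lines lay much further apart with IM. The effects were 1.57 ± 0.28 and -2.76 ± 0.28, a 2.97-fold rise and a 6.75-fold fall, and the difference was -4.33 ± 0.40 (adjusted p = 0.00025). OAT, ornithine aminotransferase, measured 8188, 14828, 52232 and 57995 in K562 and 709, 787, 256 and 413 in KBM5, so that K562 was higher on every array and the gap widened. BPGM, the red cell enzyme that makes bisphosphoglycerate, measured 967, 990, 4060 and 3757 in K562 and 267, 513, 110 and 243 in KBM5. Its KBM5 levels were close to background and the IM array was below it, so the size of that fall is not exact.

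UCP2, a mitochondrial inner membrane carrier, measured 951, 1554, 4604 and 3407 in K562 and 5467, 3587, 2349 and 1574 in KBM5. Without IM KBM5 was the higher line and with IM K562 was, and the effects were 1.70 ± 0.29 and -1.20 ± 0.29. IDH2, the mitochondrial isocitrate dehydrogenase, measured 1272, 1681, 3029 and 5119 in K562 and 5754, 7325, 3192 and 3330 in KBM5, with no overlap between arrays with and without IM in either line. SLC39A8, a zinc and manganese importer, had effects of 1.20 and -2.30, and DSN1, a kinetochore protein, of 1.02 and -2.10. Both were below background on 1 of the 2 KBM5 arrays with IM, which leaves the KBM5 effects inexact. PI4K2B, a phosphatidylinositol kinase, had effects of 1.17 and -1.57, AIDA of 1.01 and -0.96, and YWHAH, a binding protein of phosphorylated partners, of 1.03 and -1.19. YWHAH was not called for the difference without an array of the K562 plain pair. TCF4, HTRA2 and NIPSNAP2 complete the 13, and their falls in KBM5 were not called after quantile normalization.

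Genes of DNA replication fell steeply in KBM5 and little in K562. Cells express these genes, most of them targets of E2F factors, as they enter S phase to copy their DNA. Of 35 replication and G1/S genes above background in both lines, IM lowered 34 in KBM5 and 2 in K562, against 23.4% and 16.2% of the 5643 genes. The median effects of the 35 were -3.01 and -0.39, against -0.02 and -0.14 over the 5643 genes. The difference was called in 35 of 35, with 33 higher in K562 and the 2 exceptions, CDK6 and CCND2, higher in KBM5. This compares with 8.83% and 7.04% of the 5643 genes. Without an array of either K562 pair the counts were 27 and 0, and without an array of the KBM5 OR21 pair 31 and 1. Of all 55 genes of the list measured, 48 were called higher in K562 and 3 higher in KBM5, against 4.9% and 5.25% of all genes.

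CDC45, part of the helicase that opens DNA at origins, had the largest fitted difference among the 498 genes higher in K562, although genes below background have no exact order. It measured 20040, 23187, 13614 and 13582 in K562 and 7000, 6220, 60.9 and 177 in KBM5. The KBM5 arrays with IM were below background, so its fall there was at least 31.3-fold, while the K562 effect of -0.66 ± 0.35 was not called (adjusted p = 0.266). TYMS, thymidylate synthase, which makes the thymine precursor, measured 20693, 16546, 17735 and 16353 in K562 and 15979, 15199, 401 and 739 in KBM5. The lines were at similar levels without IM, and with IM K562 stayed there while KBM5 fell 28.6-fold (-4.84 ± 0.27).

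RRM2, the ribonucleotide reductase subunit that limits deoxynucleotide supply, measured 5989, 6122, 3960 and 2969 in K562 and 8824, 9529, 146 and 529 in KBM5. MCM2, of the replicative helicase, measured 880, 1174, 923 and 1037 in K562 and 3366, 1952, 124 and 185 in KBM5, where it fell at least 12.2-fold. In both genes KBM5 was the higher line without IM and the lower one with it, and the KBM5 IM array was below background for RRM2 too. The groups of roles behaved alike: all 12 licensing and firing genes above background in both lines, all 11 polymerase, clamp and fork genes and all 5 nucleotide supply genes were called higher in K562. DTL and UBE2T, ubiquitin enzymes of the S phase and of DNA repair, WDR76, MND1 and CHEK1, the checkpoint kinase, were among the 12 largest fitted differences higher in K562. CHEK1 was below background on 1 of the 2 KBM5 arrays with IM and the other 4 on both, as were CDC45 and MCM2, so these differences are bounds or not exact and their order is not established. Without IM each of these 5 measured between 940 and 8503 on all arrays, and with IM between 1020 and 8464 in K562 but between 63.5 and 224 in KBM5.

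The 2 exceptions among the G1/S genes encode a cyclin and a cyclin-dependent kinase. CCND2, cyclin D2, a target of STAT5, measured 13376, 13806, 2143 and 2505 in K562 and 9889, 19405, 7108 and 8529 in KBM5. It fell in both lines, by more in K562, with effects of -2.55 ± 0.26 and -0.83 ± 0.26. CDK6, a cyclin D partner, was called for the difference (1.22 ± 0.34, adjusted p = 0.0459) with effects of -0.47, not called, and 0.74, called. The KBM5 control array lay below its background for this gene. CDK4, by contrast, had effects of -0.06 and -2.40 and CCND3 of 0.51 and -1.67.

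Genes of mitosis followed replication. Of 46 above background in both lines, IM lowered 45 in KBM5 and 3 in K562, against 23.4% and 16.2% of the 5643 genes. The medians of the 46 were -2.29 and -0.19. The difference was called for 39, each higher in K562, against 8.83% of the 5643. Without an array of either K562 pair the count was 23, and without an array of the KBM5 plain pair 31. MYBL2, a transcription factor of the cycle, measured 3101, 3336, 4496 and 3452 in K562 and 3274, 4284, 95.6 and 212 in KBM5. NCAPG, a condensin subunit, measured 7535, 7846, 6211 and 7319 in K562 and 7472, 8831, 430 and 741 in KBM5. Both genes stood at about the same level on all arrays but the KBM5 arrays with IM, where MYBL2 was below background on 1 of 2. CDK1, the kinase that starts mitosis, had effects of -0.18 ± 0.26 and -3.43 ± 0.26, the latter not exact because 1 of the 2 KBM5 arrays with IM was below background. NDC80, of the kinetochore, had a K562 effect of 0.48 ± 0.23 and fell at least 4.32-fold in KBM5, where both arrays with IM were below background. The small K562 median changed sign under quantile normalization, to 0.06, and the KBM5 median was then -2.22. AURKA, CCNB1, ECT2, ESPL1, CKS2, CDC25B and CENPA were the 7 without a called difference.

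Histone genes that are made mainly in S phase fell in KBM5 too. Of 23 above background in both lines, 22 fell in KBM5 and 20 were called higher in K562, against 23.4% and 8.83% of the 5643 genes. The median effects of the 23 were -0.18 in K562 and -2.36 in KBM5. The K562 median was 0.03 after quantile normalization. The count of 20 was 9 without an array of the K562 plain pair and 11 without an array of the K562 OR21 pair. H2AC8 measured 39329, 27657, 35087 and 30091 in K562 and 61487, 44996, 3853 and 6486 in KBM5. H4C9 measured 1904, 1447, 1716 and 1752 in K562 and 8396, 3848, 470 and 495 in KBM5. In both histone genes KBM5 went from the higher line to the lower one. H2BC8 and H3C10 had differences of -3.59 ± 0.50 and -3.43 ± 0.40. Histone genes are close copies of each other, so their probes may share signal and the 20 are not independent.

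**Figure D4:**
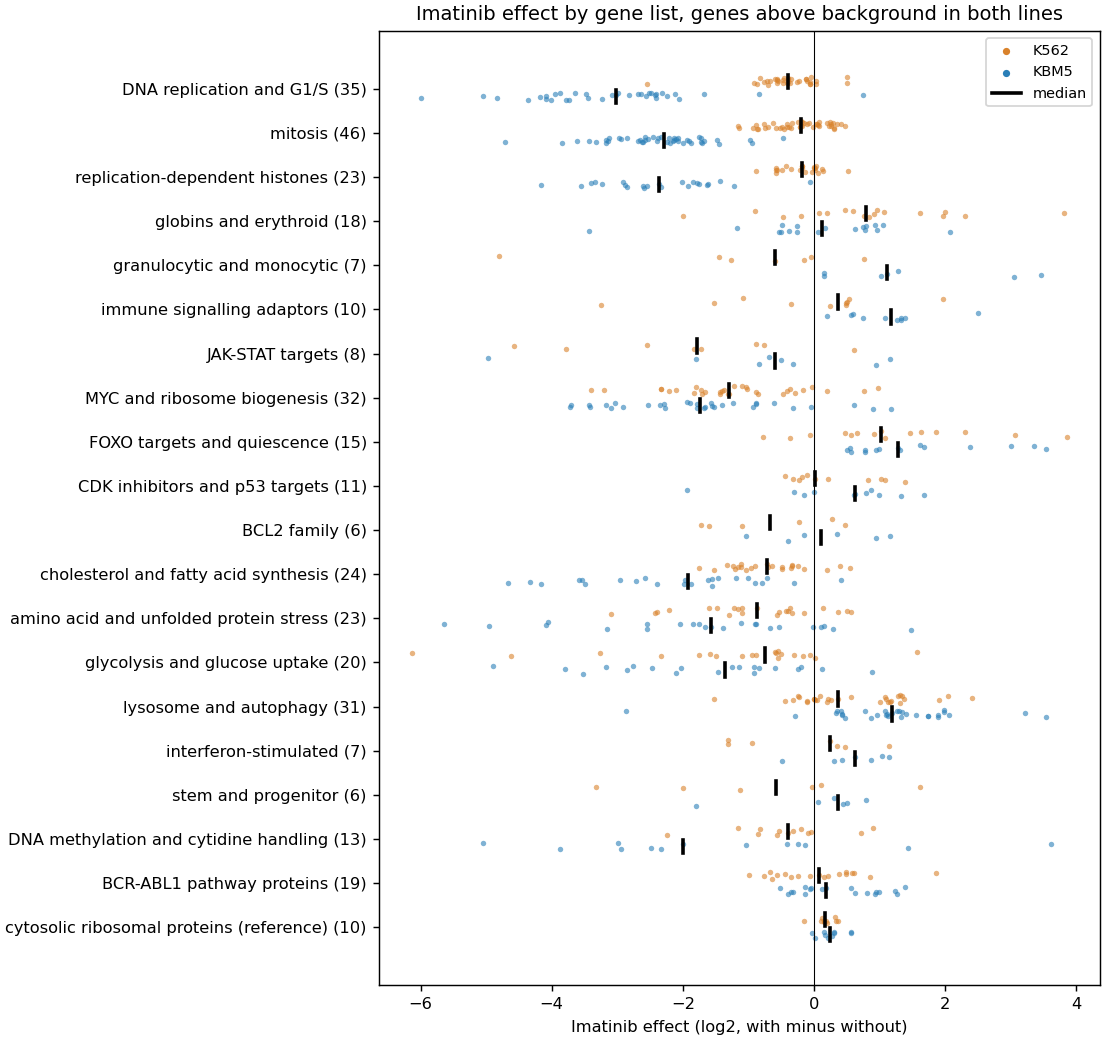
The IM effect (log2, with minus without IM) of each gene above background in both lines, by gene list, with K562 in orange above KBM5 in blue, 1 point per gene, black bars at the median and the number of genes in brackets. The KBM5 medians of the DNA replication, mitosis and histone lists lie at -3.01, -2.29 and -2.36 and the K562 medians at -0.39, -0.19 and -0.18, while the ribosomal protein list lies at 0.17 in K562 and 0.24 in KBM5.

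Promoters are shown for 1 gene each of the replication, mitosis and histone groups. These genes were picked from others because they hold matches, so they are examples and do not stand for their groups. The sequences are the 250 bases upstream of the gene start, from RefSeq on GRCh38.p14, printed along the gene with matches to the searched strings in capitals. For CDC45 (chr22:19479670-19479919, + strand) the capitals mark an E2F-type TTTGGCG and CCAAT or its reverse ATTGG. For NCAPG (chr4:17810729-17810978, + strand) they mark TTTGAA, the cell cycle homology region (CHR) of mitotic genes. For H2BC8 (chr6:26216689-26216938, - strand) they mark the octamer ATTTGCAT, bound by OCT factors in H2B genes, and CCAAT or ATTGG. The capitals at 60 bases before the H2BC8 start mark a TTTGAA as well.
CDC45: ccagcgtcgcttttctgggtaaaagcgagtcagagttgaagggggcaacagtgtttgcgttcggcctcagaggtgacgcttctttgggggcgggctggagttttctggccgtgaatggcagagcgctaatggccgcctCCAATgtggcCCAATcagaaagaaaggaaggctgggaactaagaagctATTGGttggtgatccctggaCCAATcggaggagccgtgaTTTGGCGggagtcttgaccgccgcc
NCAPG: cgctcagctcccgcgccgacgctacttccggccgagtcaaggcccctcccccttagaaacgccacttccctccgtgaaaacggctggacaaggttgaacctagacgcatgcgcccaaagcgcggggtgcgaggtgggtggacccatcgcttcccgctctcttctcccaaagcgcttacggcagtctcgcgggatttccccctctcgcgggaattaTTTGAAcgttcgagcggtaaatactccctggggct
H2BC8: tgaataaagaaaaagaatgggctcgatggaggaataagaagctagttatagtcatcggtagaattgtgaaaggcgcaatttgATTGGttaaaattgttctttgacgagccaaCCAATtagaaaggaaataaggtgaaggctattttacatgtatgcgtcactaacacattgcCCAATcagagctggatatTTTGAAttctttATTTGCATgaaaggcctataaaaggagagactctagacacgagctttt
The H2BC8 stretch overlaps by 232 bases the upstream stretch of H2AC8, which runs in the opposite direction, so this pair shares 1 promoter region.

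Each letter string was searched on both strands of the upstream 250 bases, of which a table entry existed for 14250 genes of the array and 4828 of the 5643. CCAAT was found in 34.6% of all array genes, 37.8% of the 4828, 55.0% of those called higher in K562 and 31.6% of those called higher in KBM5. It was in 17 of 30 replication genes called higher in K562, in 22 of 33 mitosis genes and in 15 of 18 histone genes. TTTGAA was in 19 of the 33 mitosis genes (57.6%), in 7 of the 18 histone genes (38.9%) and in 1 of the 30 replication genes. It was in 8.62% of the 4828 and in 10.7% of all array genes. The E2F letters, which were TTTCCCG or the form TTTGGCG or the form TTTCGCG or the form TTTGCCG, were in 10 of the 30 replication genes (33.3%) and in 6 of the 18 histone genes (33.3%). They were in 4 of the 33 mitosis genes (12.1%), near the 12.8% of the 4828, and in 9.36% of all array genes. ATTTGCAT was in 7 of the 18 histone genes (38.9%), against 1.37% of the 4828 and 1.59% of all. Histone promoters held 43.2% G and C against 61.2% over all array genes, and the part of base composition in these shares was not tested. The E2F letters were changed after shorter trials on these sequences, so their shares are not those of a preset motif. The letters are matches in a window, not sites shown to be bound.

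For the genes that rose in KBM5, LAPTM5 (chr1:30757775-30758024, - strand) and CD68 (chr17:7579388-7579637, + strand) are shown because both hold AGGAAGTG, a core of the PU.1 motif, in capitals. Whether PU.1 acts on these genes was not tested.
LAPTM5: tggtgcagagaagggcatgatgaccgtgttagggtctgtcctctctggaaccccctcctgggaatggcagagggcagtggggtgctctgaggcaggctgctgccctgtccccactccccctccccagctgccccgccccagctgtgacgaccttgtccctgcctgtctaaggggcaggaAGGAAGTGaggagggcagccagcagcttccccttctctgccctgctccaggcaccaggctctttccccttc
CD68: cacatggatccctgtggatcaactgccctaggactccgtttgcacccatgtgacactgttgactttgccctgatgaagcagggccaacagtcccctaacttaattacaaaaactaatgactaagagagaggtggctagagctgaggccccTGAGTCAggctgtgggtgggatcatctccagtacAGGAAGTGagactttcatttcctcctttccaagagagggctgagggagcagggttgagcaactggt
The match lay 71 bases before the gene start in LAPTM5 and 66 in CD68. The other capitals in CD68 mark TGAGTCA, a form of the AP-1 motif TGANTCA. That motif was in 1 of 36 stretches, in 3.19% of the 4828 common genes with an entry and in 5.07% of all array genes. The PU.1 letters were changed after shorter trials on these sequences, so their shares are not those of a preset motif. They were in 4 of the 36 upstream stretches held for the 49 genes (11.1%: CD68, LAPTM5, ARHGAP25 and FHL3). They were in 4.82% of all genes called higher in KBM5, in 3.21% of the 4828 and in 3.05% of all array genes. These are small counts, and other strings reached similar ones in the 36. ATTTGCAT was in 3 (8.33%, against 1.37% of the 4828 and 1.59% of all array genes). AGATAA, known from erythroid genes, was in 3 (8.33%, against 4.1% of the 4828 and 6.92% of all array genes). The stretches of PRKCB, ZYX and S100A11 did not hold the PU.1 letters.

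SAMHD1, a hydrolase of deoxynucleotides that also inactivates the active form of cytidine analogues, rose only in KBM5 by the calls made. It measured 378, 362, 318 and 381 in K562 and 1627, 957, 17966 and 13151 in KBM5. K562 stayed flat and both KBM5 arrays with IM stood apart, with an effect of 3.62 ± 0.24 (12.3-fold) and a difference of 3.71 ± 0.34 (adjusted p = 0.00022). It belongs to a list of 13 common genes that methylate DNA or handle cytidine and its analogues, of which 2 were called higher in KBM5 and 5 higher in K562. Over the 5643 genes these shares were 7.04% and 8.83%. NT5C2, a nucleotidase, was the other that rose in KBM5, and it fell in K562, with effects of 1.43 and -0.85. That fall was not called after quantile normalization. SLC29A1, the nucleoside importer ENT1, measured 2167, 4178, 5045 and 6302 in K562 and 3720, 4381, 291 and 885 in KBM5. It was lower on both KBM5 arrays with IM than on any other array, with effects of 0.91 ± 0.33, not called, and -2.99 ± 0.33. UHRF1, which guides maintenance methylation, and RRM1, the partner of RRM2, had KBM5 effects of -3.88 and -2.49 and K562 effects of -0.56 and -0.04. DNMT1, the maintenance methyltransferase, was the fifth gene called higher in K562.

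Many lysosome and autophagy genes rose in both lines. Of 31 above background in both, 14 rose in K562 and 23 in KBM5, against 7.34% and 17.2% of the 5643 genes. The medians of the 31 were 0.37 and 1.19. The difference was called for 7 of the 31, against 15.9% of the 5643 genes. LAMP1, LAMP2, CTSA, GLA, SQSTM1 and GABARAPL1 were higher in KBM5, and BNIP3 was higher in K562. Without an array of the K562 plain pair 3 were called higher in KBM5 and 1 higher in K562, and without an array of the K562 OR21 pair 4 and 0. GABARAPL1, which coats autophagosomes, measured 198, 261, 341 and 329 in K562 and 158, 482, 2557 and 4043 in KBM5. The KBM5 control lay below background, so the size of its rise of 3.54 ± 0.28 is not exact. SQSTM1, the autophagy receptor p62, measured 2181, 2248, 1933 and 2898 in K562 and 981, 1034, 3553 and 3938 in KBM5, where arrays with and without IM did not overlap. BNIP3, a mitochondrial protein made under low oxygen, fell in KBM5 by -2.87 ± 0.34 with a K562 effect of -0.25 ± 0.34.

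Genes that make cholesterol and fatty acids fell in both lines, by a larger median in KBM5. Of 24 genes above background in both, IM lowered 10 in K562 and 20 in KBM5, against 16.2% and 23.4% of the 5643 genes, with medians of -0.71 and -1.92. The difference was called in 12, each higher in K562, against 8.83% of the 5643. HMGCS1, which makes the HMG-CoA for the pathway, measured 9183, 8811, 3867 and 4448 in K562 and 23319, 12327, 1262 and 561 in KBM5. KBM5 had the higher level without IM and the lower one with it, and the effects were -1.12 ± 0.24 and -4.33 ± 0.24 (a 20.1-fold fall). DHCR7, of the last step of cholesterol synthesis, measured 20575, 16817, 5467 and 5515 in K562 and 22412, 19083, 649 and 1018 in KBM5. FASN, fatty acid synthase, was below background on both KBM5 arrays with IM and fell at least 11.5-fold there and 2.87-fold in K562. FDPS had effects of -0.48 ± 0.31, not called, and -3.49 ± 0.31.

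Amino acid supply behaved in a similar way. Of 23 genes of amino acid synthesis, import and unfolded protein stress, 12 fell in K562 and 15 in KBM5, against 16.2% and 23.4% of the 5643. The difference was called higher in K562 for 7, against 8.83% of the 5643 genes. That count was 4 without an array of the K562 plain pair and 3 without an array of the K562 OR21 pair. PHGDH, the first enzyme of serine synthesis, measured 4052, 2429, 427 and 805 in K562 and 4855, 2973, 114 and 51.1 in KBM5, at least an 18.0-fold fall in KBM5 and a 5.35-fold fall in K562. ASNS, asparagine synthetase, fell 3.03-fold in K562 and at least 11.1-fold in KBM5, where it was below background with IM. MTHFD2, of the mitochondrial folate cycle, had effects of -1.22 and -3.16 and ALDH18A1, of proline synthesis, 0.15 and -2.55. SLC38A2, a neutral amino acid importer, was the exception called higher in KBM5, with -1.09 and 0.11. It was not called without an array of either K562 pair or of the KBM5 OR21 pair. Another importer, SLC38A5, measured 11206, 13696, 6778 and 6730 in K562 and 3790, 3491, 83.1 and 85.2 in KBM5. The arrays with IM lay below those without in both lines, by 1.83-fold in K562 and at least 17.3-fold in KBM5.

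Among 20 glycolysis genes the difference was called in 4, near the 15.9% over the 5643 genes, 3 of them higher in K562 and 1 higher in KBM5. The counts were 1 higher in K562 without an array of the K562 OR21 pair, 1 and 3 without an array of the KBM5 plain pair, and 5 and 1 without an array of the KBM5 OR21 pair. SLC2A1 is described above. ALDOC, an aldolase, and PDK1, which turns off pyruvate dehydrogenase, were higher in K562, with effects of -1.10 and -3.79 and of -0.57 and -2.11. PKM, pyruvate kinase, was higher in KBM5 and measured 17054, 8299, 1546 and 994 in K562 and 33808, 29362, 15652 and 17928 in KBM5. It fell in both lines, 9.60-fold in K562 and 1.88-fold in KBM5. SLC2A3, a second glucose transporter, fell in both, with an effect of -6.13 in K562, where 1 of the 2 arrays with IM was below background, and a fall of at least 12.6-fold in KBM5, where both were. Its near copy SLC2A14 fell too, and their differences were not called.

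Few erythroid genes were shared by the lines: 18 of 62 measured were above background in both, and 0 of 9 globin genes were. TFRC, the transferrin receptor that brings iron into dividing and erythroid cells, measured 26471, 31100, 36634 and 29952 in K562 and 19539, 19724, 2127 and 1543 in KBM5. K562 stayed level and KBM5 fell 10.8-fold. SLC25A37, mitoferrin, which carries iron to heme synthesis, measured 1167, 2866, 25709 and 25763 in K562 and 1078, 721, 1533 and 1199 in KBM5. The K562 arrays with IM stood far above all others, with effects of 3.81 ± 0.31 and 0.62 ± 0.31, the latter not called. ABCB10, its mitochondrial partner, measured 741, 1445, 4267 and 6118 in K562 and 1107, 1835, 1014 and 1414 in KBM5, so only the K562 arrays with IM stood high. BPGM and the heme enzymes UROS, UROD and CPOX were the others called higher in K562, 7 in all, and FTL, NFE2, ALAS1 and MYB were called higher in KBM5. Over the 5643 genes 8.83% were called higher in K562 and 7.04% higher in KBM5. The counts of this list were 5 higher in K562 and 0 higher in KBM5 without an array of the K562 plain pair, 5 and 1 without an array of the K562 OR21 pair, and 5 and 2 without an array of the KBM5 plain pair.

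MYC, the growth regulator, measured 12058, 11202, 1918 and 2768 in K562 and 20650, 15088, 4122 and 3178 in KBM5. It fell in both lines, 5.04-fold and 4.88-fold, and the difference was 0.05 ± 0.35. Of 32 genes of the MYC network, MYC targets and ribosome biogenesis, 23 fell in K562 and 26 in KBM5. Over the 5643 genes 16.2% fell in K562 and 23.4% in KBM5. Of the 32, 8 were called for the difference: PAICS, PPAT, HSPD1, HSPE1, RCL1, CCT2 and TFRC higher in K562 and MAX, the MYC partner, higher in KBM5. Over the 5643 genes 15.9% were called. The counts of this list were 3 higher in K562 and 1 higher in KBM5 without an array of the K562 plain pair, and 2 and 0 without an array of the K562 OR21 pair. MAX moved in opposite directions, with effects of -1.03 and 0.90, but its fall in K562 was not called after quantile normalization. The 10 cytosolic ribosomal protein genes had a median difference of 0.08 and effects between -0.15 and 0.57.

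Of 8 JAK-STAT targets and STAT genes above background in both lines, 6 fell in K562 and 3 in KBM5. Over the 5643 genes 16.2% fell in K562 and 23.4% in KBM5. PIM2, a survival kinase, measured 13589, 15588, 620 and 604 in K562 and 185, 442, 106 and 383 in KBM5. In K562 it fell 23.8-fold, and in KBM5 it was near background, with 1 of 2 arrays above it with and without IM, so its effect there is not exact. PIM1, its relative, measured 13456, 10367, 3872 and 2830 in K562 and 4088, 3162, 108 and 122 in KBM5, a 3.57-fold fall in K562 and at least a 17.1-fold fall in KBM5. CISH, a feedback inhibitor induced by STAT5, was below background on both K562 arrays with IM. It fell at least 6.18-fold in K562, from 1291 and 1001, and 3.47-fold in KBM5, from 2986 and 2805 to 946 and 735. STAT5A, which carries the signal, had effects of -0.77, not called, and 0.94, called. Of the 8 genes, 5 were called higher in KBM5 (2 without an array of the K562 plain pair, 3 without an array of the K562 OR21 pair) and PIM1 higher in K562, where a further gene was called without an array of the KBM5 OR21 pair. Over the 5643 genes 7.04% were called higher in KBM5 and 8.83% higher in K562.

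MCL1, an anti-apoptotic BCL2 relative that STAT signalling sustains, was the 1 member of the BCL2 family called for the difference among 6, near the 15.9% over the 5643 genes. It measured 13147, 7975, 3168 and 3040 in K562 and 5706, 4918, 9969 and 14192 in KBM5. K562 had the higher level without IM and KBM5 with it, and neither line had overlap, with effects of -1.72 ± 0.27 and 1.17 ± 0.27 (adjusted p of the difference 0.00147). BCL2L11, a death activator of the family known as BIM, had effects of 0.47 and 0.95. Among ERK outputs IER2, an immediate early gene, measured 3393, 1645, 350 and 424 in K562 and 858, 675, 671 and 880 in KBM5. It fell 6.13-fold in K562 and had a KBM5 effect of 0.01 ± 0.33, and its difference was not called without an array of the K562 plain pair.

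Of 19 genes for proteins of the BCR-ABL1 pathway and for IM transport, 3 were called for the difference, a share near the 15.9% over the 5643 genes. CBL, the ubiquitin ligase that binds the kinase, moved in opposite directions, with effects of -0.98 ± 0.26 and 1.24 ± 0.26, although 1 of the 2 K562 arrays with IM was below background. Its fall in K562 was not called after quantile normalization. STAT5A was the other called higher in KBM5. SLC22A4, an organic cation transporter, was called higher in K562, with effects of 1.87 and 0.19, the former not exact because 1 of the 2 K562 arrays without IM was below background. Without an array of the K562 plain pair 0 of the 3 were called. Without an array of the K562 OR21 pair 1 was called in each direction, and without an array of the KBM5 plain pair 1 was called, higher in KBM5. BCR and ABL1, the fusion partners, had differences that were not called, with effects of 0.16 and 1.00 for BCR and of 0.39 and 0.81 for ABL1.

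FOXO targets and quiescence genes rose in both lines: of 15, 9 rose in K562 and 12 in KBM5, against 7.34% and 17.2% of the 5643 genes. The medians of the 15 were 1.03 and 1.29. YPEL3 had effects of 3.86 and 3.36 (the latter not exact, with 1 KBM5 array without IM below background) and TXNIP, which limits glucose uptake, 1.86 and 3.01, and neither difference was called. The 3 called, GABARAPL1, TOB1 and TRIB1, were higher in KBM5 (1 without an array of either K562 pair). These 3 of 15 are a share near the 15.9% called over the 5643 genes. Of 11 CDK inhibitor and p53 target genes, CDKN3 was called higher in K562 and RRM2B higher in KBM5, and neither was called without an array of either K562 pair. These 2 of 11 are near the 15.9% over the 5643 genes. CDKN1B, the inhibitor p27, rose in both, with 1.08 and 0.99. CDKN3 encodes a phosphatase of CDKs that cycling cells make.

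Of 6 stem and progenitor genes above background in both lines, 3 fell in K562 and were called higher in KBM5 (0 without an array of the K562 plain pair, 1 without an array of the K562 OR21 pair). Over the 5643 genes 16.2% fell in K562 and 7.04% were called higher in KBM5. MYB, a factor of immature blood cells, measured 17919, 16576, 4221 and 4442 in K562 and 36722, 57208, 43967 and 52650 in KBM5. It fell 3.98-fold in K562, and in KBM5 the arrays with and without IM overlapped. ETV6 had effects of -1.12, not exact since 1 K562 array with IM was below background, and 0.50. GATA2 fell in both lines, by at least 6.75-fold in K562, where both arrays with IM were below background. In KBM5 it measured 196, 2154, 75.7 and 464, above background on 1 of 2 arrays with and without IM, so the size of that fall is not exact. Among 7 interferon-stimulated genes IFITM2 and IFITM3, which may share probes, were called higher in KBM5, against 7.04% of the 5643 genes. Their K562 effects were -1.31 and -1.32 and their KBM5 effects 0.43 and 0.62. Neither was called without an array of the K562 plain pair, and 1 of them was without an array of the K562 OR21 pair or the KBM5 plain pair. KRT8, an epithelial keratin, was the 1 epithelial gene above background in both lines and had effects of -2.36 and 0.00, with a difference that was not called without an array of the K562 plain pair. NFE2, of megakaryocytes and erythroid cells, had effects of 0.47 and 2.08, the latter not exact because the KBM5 control array was below background, with a difference not called without an array of either K562 pair or of the KBM5 plain pair. No lymphoid gene of the list was above background in both lines, and the 3 antigen presentation genes, ERAP1, TAPBP and B2M, had differences between -1.16 and 0.46.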

How the data were processed

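Total RNA of the 8 cultures was labelled with biotin and measured on arrays, per the labels. The authors deposited a linear intensity for each of 24351 probe sets; how they were summarized and normalized is not given in the sources used here. Symbols came from the platform annotation: 17709 probe sets had 1 symbol, 0 had several and 3739 transcript clusters had none. For the 20 genes with several probe sets the brightest was used. Values were analysed as log2(intensity) with limma 3.58.1 in R 4.3.3, with a baseline, an OR21 term and an IM term for each line (2 residual and 8.31 prior degrees of freedom), and p-values were adjusted over 17687 genes. The procedure was tested on simulated data with 200 changed genes. Of these 136 were recovered, and 15 of the others were called, a larger share of the calls than the threshold of 0.05. A fold against arrays below background is a bound ("at least"), computed with their values raised to background. If a side had arrays both above and below background, its size is called not exact. Precision is limited by the number of arrays.

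The members, gene lists, tests and naming rule were chosen with earlier results of these data known. The rule named the 12 largest called differences in each direction, the 10 opposite genes of each orientation with the largest smaller effect, and up to 4 called genes of each of 25 lists. Other genes were named for their role or to complete a count. Upstream sequences are RefSeq's, GRCh38.p14. The E2F and PU.1 letters were changed after shorter trials on the sequences, a sterol motif was tried and dropped, and the 5 promoters were picked from others because they hold matches. The alternatives tried were quantile normalization, values raised to background, log2(value + 16), trended robust moderation, averaging the probe sets of a gene, a common OR21 by IM term, each array left out, other expression rules and other folds.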

Additional observations from a re-analysis of the deposited data

Results flagged for a closer look

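The lines differed in the test of the difference itself for 895 of the common genes, and 62 of them were called in opposite directions. Being called by that test, with the called signs in the 4 array pairs, was part of the rule for the 20 named opposite genes. The KBM5 minus K562 difference of the IM effect, on the log2 scale, was 5.74 for PRKCB, 4.69 for S100A11, 4.50 for CD68, 4.15 for ETS2 and 3.92 for LAPTM5. It was 3.66 for ZNF385A, 3.59 for RAB11FIP1, 3.27 for ZYX, 2.96 for VIM and 2.93 for LYN. RAB11FIP1 was below background on both K562 arrays with IM, so its fall there was at least 2.47-fold and the fitted 3.59 is not a measured size. For PRKCB, LAPTM5 and ZYX 1 array of a side was below background, and their sizes are not exact. In the other orientation it was -4.33 for SLC2A1, -3.52 for OAT, -3.50 for SLC39A8, -3.18 for BPGM and -3.12 for DSN1. It was -2.91 for UCP2, -2.74 for PI4K2B, -2.42 for IDH2, -2.22 for YWHAH and -1.98 for AIDA. The sizes for SLC39A8, BPGM and DSN1 are not exact, since 1 of the 2 KBM5 arrays with IM was below background. The other named genes with a called difference meet the same condition, and their values are in the report.

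Transcript clusters without a gene symbol, which no comparison above used, also differed between the lines. Of 3739 such clusters 848 were above background in both lines, and 108 of these were 2-fold or more apart, with 1 sign, in both array pairs, 52 higher in KBM5 and 56 higher in K562. They were not tested.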

How the results depend on the processing

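No paired analysis was possible because each group has 1 array, so the shared number 1 pairs no replicates. The 895 called differences became 2311 with values raised to background, 1130 with log2(value + 16), 1295 with trend and robust moderation and 933 after quantile normalization (846 of them shared with the 895). With each array left out in turn they ranged from 294 to 858, and the calls in K562, 1326 in all, from 217 to 1697; the 2290 in KBM5 ranged from 1530 to 1973. With values raised to background 2863 were called in K562. The 62 opposite genes became 278 with values raised to background, 94 with log2(value + 16) and 122 with trend and robust moderation, and 14 to 71 with each array left out. The 926 genes at least 2-fold apart in both pairs were 1849 at 1.5-fold and 383 at 3-fold. Raising values to background gives each value below an array's background that background instead. The causes of the changes in these counts were not tested. Leaving out an array of a pair leaves 1 pair for that line, and the residual then comes from the other line. Of the 37 genes named by size 36 kept their called difference in all 14 settings tried, and YWHAH lost it without the K562 control or IM array. Of the 62 opposite genes 41 kept a called difference in all 14. Quantile normalization raised the median effect of the common genes by 0.19 in K562 and 0.10 in KBM5.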
